A study of Mus musculus with 6 samples.

Results

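The genes of the integrin receptors and of the laminins, the matrix proteins that several of these receptors bind, were followed in neural progenitor cells (NPCs) of mice without *Armc5* and of wild-type mice. A gene was taken if its symbol was that of an integrin alpha subunit, an integrin beta subunit or a laminin chain, with integrin-binding proteins and *Itgbl1* left out. This gave 37 genes of the 53060 in the table, of which 18 encode integrin alpha subunits, 8 integrin beta subunits and 11 laminin chains. The tested cells were *Armc5*(-/-) NPCs, called KO NPCs (n = 3 libraries, numbered 1 to 3), and they were compared with WT NPCs (n = 3 libraries, numbered 1 to 3). GEO gives the strain of both genotypes as 129 sv X CD1, whereas the study's text names CD1 x C57BL/6 F1 for its mice. Both genotypes came from ganglionic eminences at e13.5 (embryonic day) and were grown as floating neurospheres with 20 ng/ml EGF until passage 2. The line was bred from heterozygous parents, and neither a Cre driver nor a transgene is named for it. RNA was depleted of rRNA and sequenced as strand-specific paired-end libraries, which makes each value an average over all cells of a culture.

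Integrins are receptors of 1 alpha and 1 beta subunit that hold cells to the extracellular matrix and signal into the cell, and the alpha subunit largely sets what is bound. Laminins are trimers of 1 alpha, 1 beta and 1 gamma chain, and they are main components of basement membranes. In the developing brain, radial glia are anchored by integrins to the laminin-rich basement membrane under the meninges, and neural progenitors in culture are known to carry β1 integrins and to make laminin themselves.

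The values are counts of loci that were assembled from the reads, and some of these loci hold more than the named gene. Of the 37 members, 6 lay in a locus that also names another gene. *Itga5* shared its locus with *Cbx5*, which encodes the chromatin protein HP1α, and *Itga1* shared its locus with *Pelo*, a ribosome rescue factor gene inside its span, and *Gm49395*. *Itga10* shared a locus with *Gm42957*, *Lama5* with the microRNA gene *Mir7005*, *Itgad* with *Gm17831*, and *Itgam* with *Gm45700* and *Gm49368*. The reads of these genes cannot be separated. The locus that holds *Itga5*, the fibronectin receptor subunit (chromosome 15, 102956741 to 103366790), ran 18.24 times the length of that gene, across *Smug1*, *Nfe2*, *Gpr84* and *Zfp385a* on its own strand and other coding genes on the opposite one. Its level is that of the whole locus and cannot be read as *Itga5*. The assembled locus was over 1.5 times as long as the GENCODE vM21 gene for 6 members, *Itga5*, *Itgb1*, *Itga6*, *Itga7*, *Itga10* and *Itgb5*. The *Itga6* locus (GRCm38 chromosome 2, 71745616 to 72101656, plus strand) ran 3.16 times the length of the annotated gene and across *Pdk1* and *Rapgef4* on the same strand. The *Itgb1* locus (chromosome 8, 128685654 to 128905960, plus strand) ran 4.63 times the length of the gene and crossed the coding genes *Ccdc7a* and *Gm3952* on the other strand. The sources do not say whether reads were counted by strand, so reads of those genes cannot be told apart from *Itgb1* here.

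The promoters of abundant and scarce members are shown here, since the members differed widely in level. Promoters of 300 bases, with 250 bases before the start and 50 after it, were matched by symbol in RefSeq (GRCm38.p6) for 23 of the 37 members, and 18 of these lay in a locus naming no other gene. The GC box, the letters GGGCGG on either strand (CCGCCC on the strand shown), is the motif that SP1 proteins bind, and it is shown in capitals. The promoters are those of *Itgb1*, the most abundant member, of *Itgb5*, an abundant member with several GC boxes, and of *Itgax*, a leukocyte integrin with 4 counts in 1 KO library and 4 in 1 WT library.
Itgb1 (chr8:128685404-128685703, plus strand): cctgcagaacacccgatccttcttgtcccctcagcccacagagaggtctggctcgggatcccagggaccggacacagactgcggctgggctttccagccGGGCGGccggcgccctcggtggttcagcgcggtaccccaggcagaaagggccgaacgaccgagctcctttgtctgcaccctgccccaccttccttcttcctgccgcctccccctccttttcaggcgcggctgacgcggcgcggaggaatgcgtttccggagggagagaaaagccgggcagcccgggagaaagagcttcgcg
Itgb5 (chr16:33829415-33829714, plus strand): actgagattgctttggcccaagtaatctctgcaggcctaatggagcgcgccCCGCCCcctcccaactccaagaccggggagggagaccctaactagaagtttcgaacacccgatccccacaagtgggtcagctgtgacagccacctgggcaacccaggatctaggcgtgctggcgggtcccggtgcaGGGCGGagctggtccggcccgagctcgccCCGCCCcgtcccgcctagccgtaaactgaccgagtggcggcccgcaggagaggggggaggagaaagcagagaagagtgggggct
Itgax (chr7:128129300-128129599, plus strand): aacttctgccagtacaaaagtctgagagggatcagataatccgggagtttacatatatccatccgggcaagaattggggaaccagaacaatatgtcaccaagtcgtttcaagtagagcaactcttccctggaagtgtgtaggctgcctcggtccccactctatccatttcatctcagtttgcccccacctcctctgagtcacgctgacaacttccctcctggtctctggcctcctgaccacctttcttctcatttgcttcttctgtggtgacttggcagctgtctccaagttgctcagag
*Itgb1* held 1 GC box, *Itgb5* held 3 and *Itgax* held 0. Among the 18 members, a GC box was present in 6 of the 8 with a WT level of at least 1 CPM (counts scaled to library size by TMM) per kb of locus and in 2 of the 10 below it, a limit that was chosen after the levels were seen. The 3 promoters shown do not stand for all members. Among the 8, *Itgb8*, at 43.2 CPM per kb, and *Lamb2*, at 12.5, held 0 GC boxes. Among the 10, *Itga3*, at 0.161 CPM per kb, held 3 and *Lama2* held 1. *Itga2*, with 1 GC box, was only just among the 8, at 1.07 CPM per kb with a WT range of 0.255 to 1.91. A GC box was present in 35.7% of all 32851 RefSeq promoters of the same length. The TATA motif TATAAA on either strand was in 0 of the 8 and 0 of the 10, against 13.6% of all promoters.

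The libraries held between 55722527 and 86554006 counts in KO NPCs and between 67174765 and 74467951 in WT NPCs. *Armc5*, the deleted gene, had 84, 119 and 43 counts in KO NPCs 1, 2 and 3, against 1966, 2114 and 1797 in WT NPCs 1, 2 and 3. KO NPC 3 stood apart from the other libraries. It had the lowest total and the highest share of counts at loci without a gene name, 4.89% against 1.31% to 1.72% in the other 5 libraries. The summed level of 10 progenitor markers was between 3385 and 5001 CPM in KO NPCs and between 4454 and 4848 CPM in WT NPCs, with KO NPC 3 lowest. The 6 astrocyte markers summed to between 495 and 1745 CPM in KO NPCs and to between 554 and 923 CPM in WT NPCs, and the 8 oligodendrocyte lineage markers to between 1346 and 2895 CPM in KO NPCs and to between 1282 and 1911 CPM in WT NPCs, and KO NPC 3 was the highest library for both lists. The 8 neuron markers summed to between 793 and 1363 CPM in KO NPCs and to between 812 and 1465 CPM in WT NPCs. *Map2* made up most of this sum and was highest in WT NPC 1, at 1430 CPM. *Dcx*, *Tubb3*, *Gad1*, *Gad2*, *Syt1* and *Rbfox3* were higher in both libraries numbered 3 than in the others, and *Stmn2* was not. For *Dcx* this was 287 CPM in KO NPC 3 and 231.5 CPM in WT NPC 3. The 8 microglia and blood markers, *Itgam* among them, were near 0, with a sum of at most 1.03 CPM in KO NPCs and 0.526 CPM in WT NPCs, and *Tyrobp* was at 0 in all 6 libraries. The 8 endothelial and mural markers summed to between 14.0 and 77.7 CPM in KO NPCs, with KO NPC 3 highest, and to between 14.4 and 18.8 CPM in WT NPCs, with *Cdh5* and *Cldn5*, which define endothelium, at or below 0.131 CPM in each library. *Pdgfrb*, a marker of pericytes, was at 0.374, 1.15 and 58.5 CPM in KO NPCs 1, 2 and 3, against 0.190, 1.495 and 1.59 CPM in WT NPCs 1, 2 and 3. *Acta2*, another mural marker, went the other way, with 8.62, 8.63 and 0.475 CPM in KO NPCs 1, 2 and 3. WT NPCs 1, 2 and 3 had 10.2, 12.5 and 10.3 CPM of *Acta2*. *Kdr*, the endothelial VEGF receptor, was at 4.18, 4.23 and 14.8 CPM in KO NPCs 1, 2 and 3, against 3.03, 2.92 and 2.19 CPM in WT NPCs 1, 2 and 3, each KO library above each WT library. By edgeR's quasi-likelihood test its log2 fold change was 1.51 (SE 0.57, unadjusted p = 0.0355, adjusted p = 0.983), or 0.63 when KO NPC 3 was left out. The 5 fibroblast and meninges markers summed to between 1.90 and 2.53 CPM in KO NPCs and to between 1.63 and 7.46 CPM in WT NPCs. The part of these cell markers in the results below was not tested, and fewer cells of a type cannot be told apart from less RNA per cell.

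Levels were compared between genes per kb of locus length. In WT NPCs, *Itgb1*, the common partner of most integrin alpha subunits, stood first with a mean of 120 CPM per kb and a range of 89.9 to 146. *Itgb8*, which pairs with αv and releases TGFβ from its latent form, came second with a mean of 43.2 CPM per kb and a range of 26.8 to 52.8, below the range of *Itgb1*. *Itgb5*, another αv partner, had 31.5 CPM per kb, the *Itga5* and *Cbx5* locus 28.4, *Itga6* 25.2, *Lamc1* 21.4 and *Lama5* 20.9, and each of these overlapped the gene before it in the WT libraries. A further step lay between *Lama5*, at 19.8 to 22.3 CPM per kb, and *Itgav*, at 14.1 to 15.1. Below *Itgav* the order was *Lamb2* (12.5), *Itga7* (7.73), *Lamb1* (3.39), *Lama4* (2.18), *Lama1* (1.79) and *Itga4* (1.73), with overlapping neighbours. Further down, the range of the *Itga10* locus, 0.651 to 0.785 CPM per kb, again lay above that of *Itga8*, 0.174 to 0.365. The same 10 genes were the first 10 when the levels were taken per kb of coding length or as plain CPM.

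**Figure D1:**
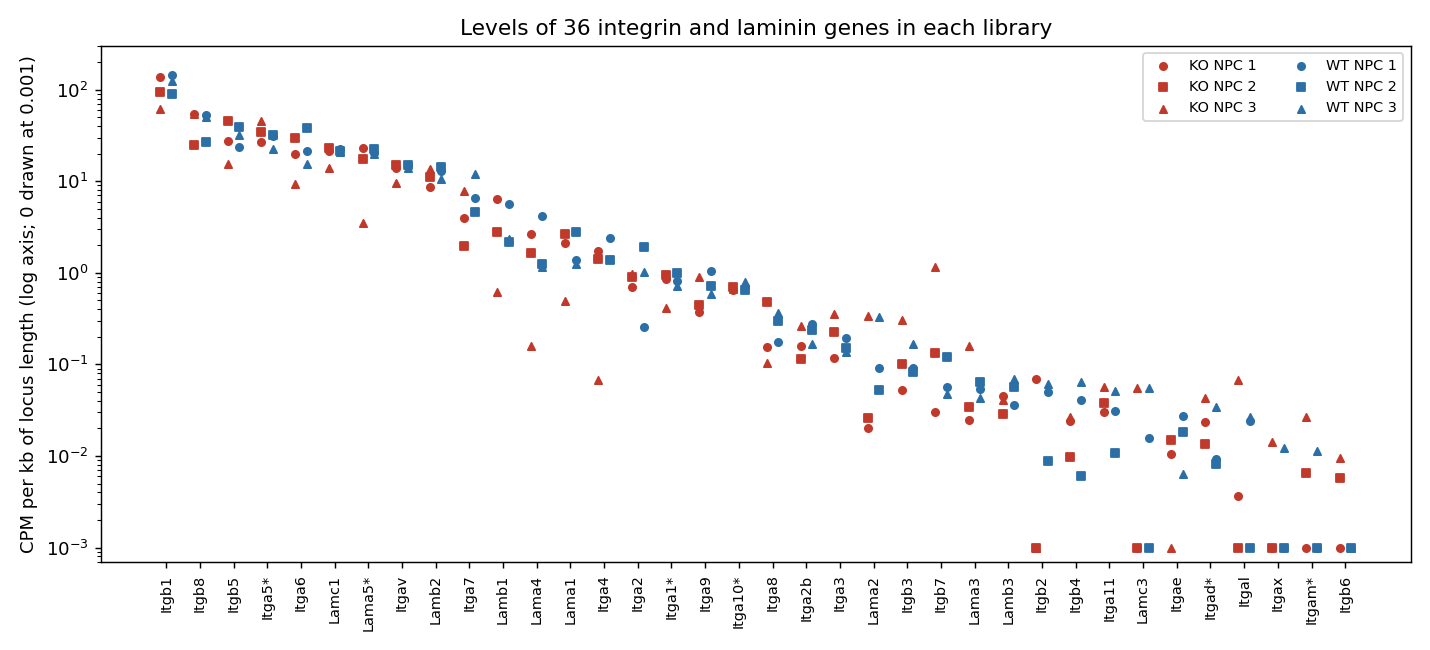
Level of 36 of the 37 genes in each library, in CPM per kb of locus length on a log axis, ordered by the WT mean; red points are KO NPCs, blue points WT NPCs, shapes are library numbers, and an asterisk marks a locus that names another gene. *Itgb1* had a WT mean of 120 CPM per kb, and *Itgb6*, at the other end, had 0 counts in each WT library.

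Of the 37 genes, 15 had a mean of at least 10 CPM over the 6 libraries, 7 had from 1 to under 10 CPM and 15 had under 1 CPM. The 15 abundant genes were the laminin chains *Lama1*, *Lama4*, *Lama5*, *Lamb1*, *Lamb2* and *Lamc1*, the alpha subunits *Itga1*, *Itga4*, *Itga5*, *Itga6*, *Itga7* and *Itgav*, and the beta subunits *Itgb1*, *Itgb5* and *Itgb8*. For *Itga5* and *Itga1* the level is that of the locus shared with *Cbx5* or *Pelo*, so neither subunit alone is shown to be abundant. The leukocyte subunits, which belong to white blood cells, were at the bottom of the order. *Itgad*, *Itgae*, *Itgal*, *Itgam*, *Itgax* and *Itgb2* each stayed at or below 0.441 CPM in KO NPCs and 0.190 CPM in WT NPCs. *Itgb6*, an epithelial αv partner, had 0, 3 and 4 counts in KO NPCs 1, 2 and 3 and 0 counts in each WT library.

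No member passed the test between the genotypes. Of the 37 members, 31 had enough counts to be tested (14 alpha, 7 beta and 10 laminin chains), and *Itgad*, *Itgae*, *Itgam*, *Itgax*, *Itgb6* and *Lamc3* did not. By edgeR's quasi-likelihood test with Benjamini-Hochberg adjustment over all 19073 genes tested, 0 of the 31 had an adjusted p under 0.05, where 0% of all genes did, and the adjusted p of the members ran between 0.983 and 0.998. At an unadjusted p under 0.05 there were 0 of 31 members, against 308 genes or 1.61% of all genes. With edgeR's likelihood ratio test and with DESeq2 there was 1 member at an unadjusted p under 0.05, *Itgb7*, against 2.88% of all genes in the likelihood ratio test and 3.03% in DESeq2. An adjusted p under 0.05 was reached by 0 members in either, against 17 of all genes in the likelihood ratio test and 35 in DESeq2. The 3 KO libraries were all higher than the 3 WT libraries in 0 of 31 members, against 2.74% of all genes, and all lower in 0 of 31, against 3.28%. The log2 fold change, KO against WT, was above 0 in 9 members and below 0 in 22, which is 71.0% below 0, against 51.6% of all genes. Its median was -0.18 over the members and -0.01 over all genes, and -0.07 over the members without KO NPC 3. The standard error of the log2 fold change had a median of 0.61 over the members and 0.37 over all genes. This error holds the noise of low counts as well as the spread between libraries, and the 2 were not told apart. A mean under 10 CPM was found in 16 of the 31 tested members and in 9193 of all 19073 genes.

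**Figure D2:**
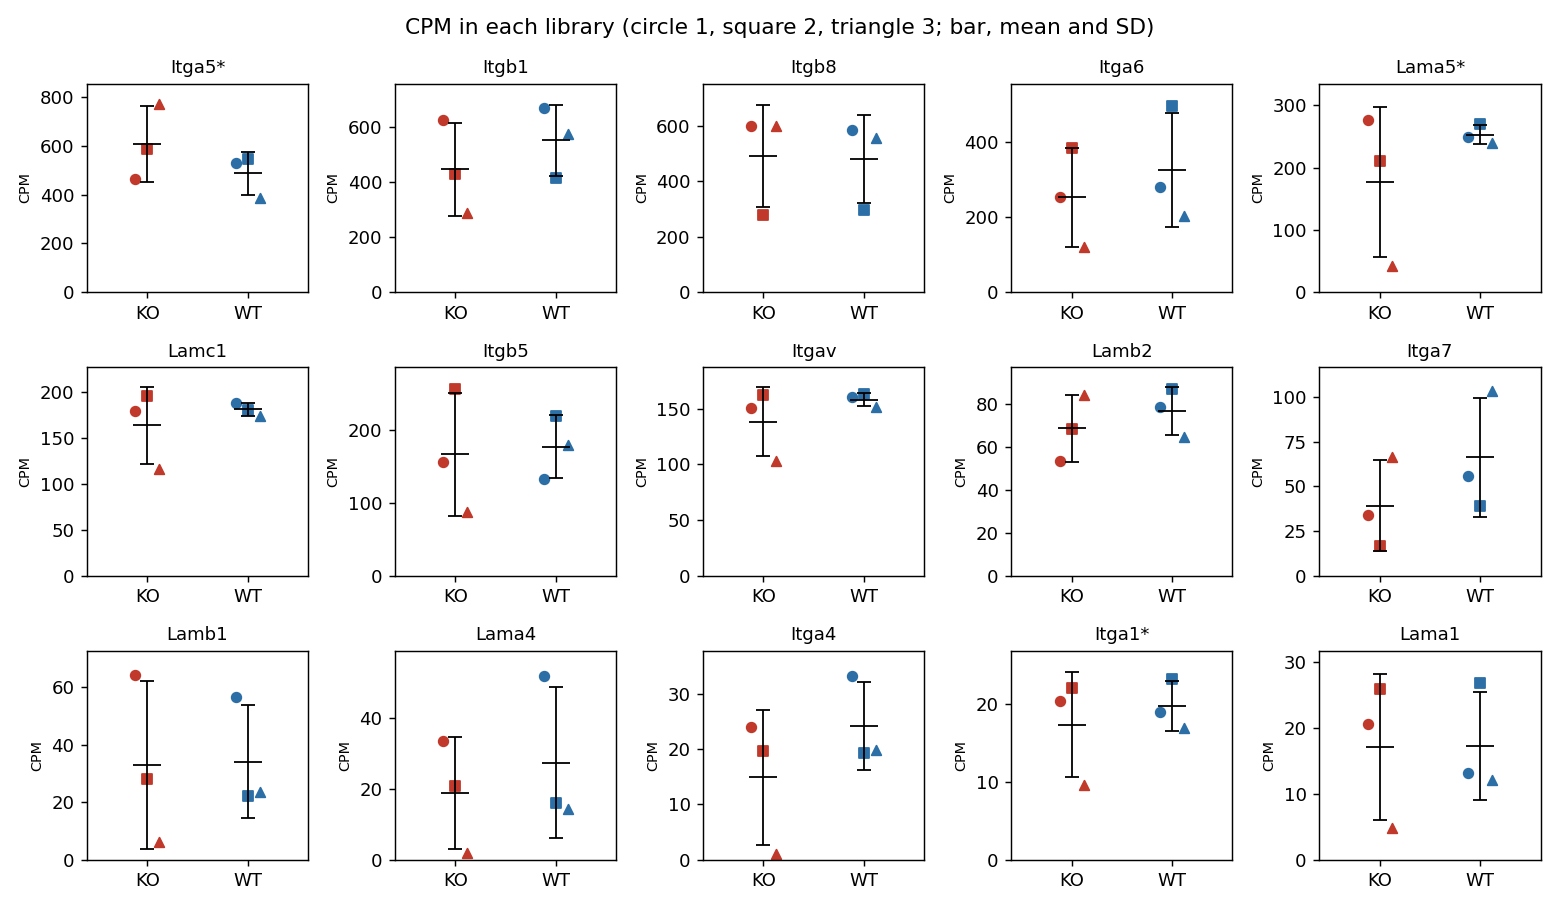
CPM in each library for the 15 members with a mean of at least 10 CPM; KO NPCs (red) stand left of WT NPCs (blue), shapes are library numbers, bars are the mean and SD (n = 3), and an asterisk marks a locus naming another gene. KO and WT libraries overlapped in each of the 15, and KO NPC 3 (red triangle) was the lowest of the 6 in 11 of them.

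The laminin alpha chains set which receptor a laminin binds. *Lama5*, the chain of the α5 laminins of mature basement membranes, was at 277, 210 and 42.2 CPM in KO NPCs 1, 2 and 3, against 249, 270 and 240 CPM in WT NPCs 1, 2 and 3. KO NPC 3 was far below the other 5 libraries, among which KO and WT overlapped. For *Lama5* this gave a log2 fold change of -0.52 (SE 0.61), and -0.06 without KO NPC 3. *Lama4*, a chain of vessel laminins, was at 33.4, 20.7 and 2.00 CPM in KO NPCs 1, 2 and 3, against 51.9, 15.8 and 14.4 CPM in WT NPCs 1, 2 and 3 (log2 fold change -0.55, SE 0.97). *Lama1*, the chain of the first laminin of the embryo, was at 20.6, 25.98 and 4.77 CPM in KO NPCs 1, 2 and 3, against 13.2, 26.8 and 12.03 CPM in WT NPCs 1, 2 and 3 (log2 fold change -0.02, SE 0.64). KO NPC 3 was the lowest library for both genes, and the other 2 KO libraries lay within the WT range. *Lama2*, the chain that is lacking in a human congenital muscular dystrophy, is shown here because its libraries followed their numbers. It was at 0.338, 0.440 and 5.73 CPM in KO NPCs 1, 2 and 3, against 1.54, 0.880 and 5.46 CPM in WT NPCs 1, 2 and 3. Its high libraries were both libraries numbered 3. *Lama3*, an epithelial chain, stayed between 0.265 and 1.70 CPM in KO NPCs and between 0.467 and 0.685 CPM in WT NPCs. As a share of the 5 alpha chains per kb, *Lama5* made up 82.5%, 79.8% and 75.2% in KO NPCs 1, 2 and 3, against 78.4%, 84.3% and 87.8% in WT NPCs 1, 2 and 3, so it was the leading alpha chain in all 6 libraries.

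*Lamc1* encodes the γ1 chain, which most laminins share. It was at 179, 196 and 116.5 CPM in KO NPCs 1, 2 and 3, against 188, 181 and 174 CPM in WT NPCs 1, 2 and 3. KO NPC 1 lay within the narrow WT range, KO NPC 2 above it and KO NPC 3 well below it. The log2 fold change was -0.14 (SE 0.22, 95% interval -0.68 to 0.39), and 0.05 without KO NPC 3. For each *Lamc1* count, KO NPC 3 also held less *Lama5*. The ratio of *Lama5* to *Lamc1* CPM was 1.54, 1.07 and 0.363 in KO NPCs 1, 2 and 3, against 1.32, 1.49 and 1.38 in WT NPCs 1, 2 and 3.

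The 2 abundant laminin beta chains did not keep a fixed proportion. *Lamb2* was at 53.4, 68.5 and 84.4 CPM in KO NPCs 1, 2 and 3, against 78.9, 87.1 and 64.9 CPM in WT NPCs 1, 2 and 3 (log2 fold change -0.16, SE 0.22, and -0.34 without KO NPC 3 or -0.01 without KO NPC 1). *Lamb1* was at 64.0, 28.1 and 6.28 CPM in KO NPCs 1, 2 and 3, against 56.6, 22.0 and 23.6 CPM in WT NPCs 1, 2 and 3 (log2 fold change -0.05, SE 0.80, and 0.43 without KO NPC 3). Both libraries numbered 1 were the highest for *Lamb1*, and KO NPC 3 was the lowest. *Lamb1* therefore made up 42.3%, 20.0% and 4.35% of the beta chains per kb in KO NPCs 1, 2 and 3, against 30.5%, 13.4% and 18.1% in WT NPCs 1, 2 and 3, and nearly all of the remainder was *Lamb2*. The third beta chain, *Lamb3* of epithelial laminin, was at or below 0.301 CPM in KO NPCs and 0.453 CPM in WT NPCs. Over the 10 laminin chains tested, the log2 fold change was positive in 2 and negative in 8, and 0 passed the test.

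Among the integrin beta subunits, *Itgb1* was at 625, 428.5 and 286 CPM in KO NPCs 1, 2 and 3, against 670, 413 and 574 CPM in WT NPCs 1, 2 and 3. KO NPC 3 was the lowest of the 6, and KO NPCs 1 and 2 were close to the WT libraries of the same number. *Itgb1* had a log2 fold change of -0.31 (SE 0.33, 95% interval -1.11 to 0.49), and -0.07 without KO NPC 3. *Itgb8* was at 600, 279.8 and 600 CPM in KO NPCs 1, 2 and 3, against 587, 298 and 558 CPM in WT NPCs 1, 2 and 3. Both libraries numbered 2 stood at about the same low level and the other 4 at about the same high one, with no gap between the genotypes (log2 fold change 0.04, SE 0.39). With the library number as a block, the log2 fold change of *Itgb8* was 0.01, with a 95% interval of -0.43 to 0.46. *Itgb5* was at 156, 255 and 87.1 CPM in KO NPCs 1, 2 and 3, against 133, 218 and 179 CPM in WT NPCs 1, 2 and 3 (log2 fold change -0.09, SE 0.41, and 0.22 without KO NPC 3). It was highest in both libraries numbered 2, where *Itgb8* was lowest.

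The 2 abundant αv partners were thus present in a proportion that differed between the library numbers. Per kb, *Itgb8* made up 65.9%, 35.5% and 77.3% of the αv-partner subunits β3, β5, β6 and β8 in KO NPCs 1, 2 and 3, against 69.0%, 40.7% and 61.0% in WT NPCs 1, 2 and 3. The share of *Itgb5* was 34.0%, 64.3% and 22.2% in KO NPCs 1, 2 and 3, against 30.9%, 59.1% and 38.8% in WT NPCs 1, 2 and 3. *Itgb8* led in the libraries numbered 1 and 3 of both genotypes and *Itgb5* in both libraries numbered 2. *Itgb3*, the platelet and vessel αv partner, was at 0.326 to 1.88 CPM in KO NPCs and at 0.503 to 1.02 CPM in WT NPCs. *Itgb4*, the subunit of hemidesmosomes, was at or below 0.187 CPM in KO NPCs and 0.453 CPM in WT NPCs. *Itgb1* made up 62.4%, 56.8% and 46.7% of all beta subunits per kb in KO NPCs 1, 2 and 3, against 65.5%, 57.7% and 60.2% in WT NPCs 1, 2 and 3.

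The laminin receptors α6 and α7 both pair with β1. *Itga6*, which is a marker of many stem cells, was at 255, 386 and 120 CPM in KO NPCs 1, 2 and 3, against 279.5, 497 and 202 CPM in WT NPCs 1, 2 and 3. The libraries numbered 2 were the highest and those numbered 3 the lowest in each genotype, and the genotypes overlapped. *Itga6* had a log2 fold change of -0.36 (SE 0.50), and within the numbers 1, 2 and 3 the KO minus WT difference in log2 CPM was -0.13, -0.37 and -0.75. *Itga7*, best known from skeletal muscle, was at 34.2, 16.8 and 66.7 CPM in KO NPCs 1, 2 and 3, against 56.0, 39.3 and 103.5 CPM in WT NPCs 1, 2 and 3. Its order over the numbers was the reverse of that of *Itga6*, with the libraries numbered 3 the highest and those numbered 2 the lowest. The log2 fold change of *Itga7* was -0.76 (SE 0.57, 95% interval -2.14 to 0.63), and the KO minus WT differences in log2 CPM within the numbers 1, 2 and 3 were -0.71, -1.23 and -0.63. When each library was left out in turn it lay between -1.37 (without KO NPC 3) and -0.29 (without WT NPC 3). With the library number as a block, *Itga7* was the 1 member of 31 with an unadjusted p under 0.05, against 2.05% of all genes, with a log2 fold change of -0.86 (SE 0.21) and an adjusted p of 0.968 in edgeR's quasi-likelihood test. *Itga3*, the third laminin receptor, was at 0.663 to 2.02 CPM in KO NPCs and at 0.788 to 1.11 CPM in WT NPCs. Of the laminin-binding alpha subunits per kb, *Itga7* made up 16.8%, 6.13% and 44.7% in KO NPCs 1, 2 and 3, against 23.1%, 10.6% and 43.4% in WT NPCs 1, 2 and 3, and *Itga6* nearly all of the rest.

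The αv subunit, which binds the RGD motif in vitronectin, fibronectin and latent TGFβ, varied little between the WT libraries. *Itgav* was at 150.2, 162 and 103 CPM in KO NPCs 1, 2 and 3, against 160.2, 163 and 152 CPM in WT NPCs 1, 2 and 3. KO NPC 3 was lowest, KO NPC 1 lay just under the WT range and KO NPC 2 within it (log2 fold change -0.19, SE 0.20, 95% interval -0.68 to 0.30, and -0.02 without KO NPC 3). The locus of *Itga5* and *Cbx5* was at 463, 588 and 774 CPM in KO NPCs 1, 2 and 3, against 532, 547 and 386 CPM in WT NPCs 1, 2 and 3. KO NPC 3 was the highest and WT NPC 3 the lowest of the 6 libraries, and the other 4 overlapped (log2 fold change 0.32, SE 0.25, 95% interval -0.29 to 0.92, and 0.10 without KO NPC 3). *Itga8*, a receptor of nephronectin in the kidney, was at 0.763 to 3.54 CPM in KO NPCs and at 1.28 to 2.69 CPM in WT NPCs, and *Itga2b* of platelets at 0.618 to 1.44 CPM in KO NPCs and at 0.920 to 1.52 CPM in WT NPCs.

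*Itga4*, the receptor of VCAM1 and fibronectin, was at 24.0, 19.7 and 0.9501 CPM in KO NPCs 1, 2 and 3, against 33.3, 19.3 and 19.9 CPM in WT NPCs 1, 2 and 3. In KO NPC 3 it was read 56 times, against at least 1365 times in each of the other 5 libraries, among which KO and WT overlapped. The log2 fold change of *Itga4* was -0.70 (SE 0.96), and -0.15 without KO NPC 3. *Itga9*, its closest relative, was not low in that library, with 2.89, 3.41 and 6.97 CPM in KO NPCs 1, 2 and 3, against 8.10, 5.52 and 4.54 CPM in WT NPCs 1, 2 and 3. Of the collagen receptors, the locus of *Itga1* and *Pelo* was at 20.3, 22.0 and 9.64 CPM in KO NPCs 1, 2 and 3, against 18.9, 23.3 and 16.95 CPM in WT NPCs 1, 2 and 3 (log2 fold change -0.19, SE 0.34). *Itga2* was at 4.94 to 6.97 CPM in KO NPCs and, with a wider spread, at 1.82 to 13.6 CPM in WT NPCs. The locus of *Itga10* stayed between 5.93 and 6.39 CPM in KO NPCs and between 5.90 and 7.11 CPM in WT NPCs, and *Itga11* was at or below 0.288 CPM in KO NPCs and 0.263 CPM in WT NPCs.

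The smallest unadjusted p of the members, 0.0941 in edgeR's quasi-likelihood test, was that of *Itgb7*, the beta subunit of gut-homing lymphocytes, which is described here for this value. *Itgb7* had 7, 27 and 191 counts in KO NPCs 1, 2 and 3, against 10, 24 and 9 counts in WT NPCs 1, 2 and 3. KO NPC 3 alone was high, and the other 5 libraries overlapped. The log2 fold change of 2.54 (SE 1.29) was 0.11 without that library. The blood cell markers *Ptprc*, *Cx3cr1* and *Csf1r* were at 0.136, 0.187 and 0.373 CPM in KO NPC 3, where *Itgb7* was at 3.24 CPM. *Cx3cr1* and *Csf1r* were highest in that library, and *Ptprc* in WT NPC 3, at 0.336 CPM. The 8 microglia and blood markers summed to 1.035 CPM in KO NPC 3, against 0.0317 to 0.526 CPM in the other 5 libraries. Whether blood cells carried the *Itgb7* reads was not tested.

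**Figure D3:**
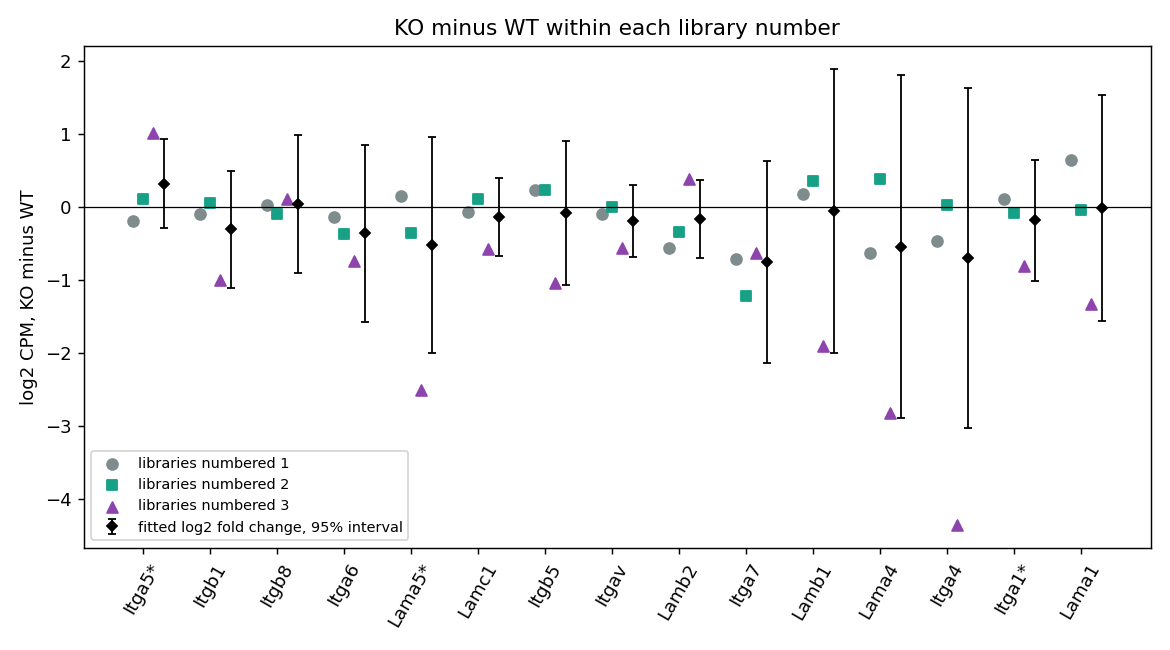
Difference in log2 CPM, KO minus WT, within each library number (coloured points) and the fitted log2 fold change with its 95% interval (black) for the 15 members with a mean of at least 10 CPM; an asterisk marks a locus naming another gene. Each interval includes 0, and the libraries numbered 3 (purple) gave the lowest points, such as -4.35 for *Itga4* and -2.51 for *Lama5*.

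The libraries share the numbers 1 to 3 between the genotypes, and deviations from the genotype means went together within a number. Within the numbers 1, 2 and 3, KO was above WT in 10, 14 and 13 of the 31 members tested. KO was lower than WT within each of the 3 numbers in 3 members, *Itga6*, *Itga7* and *Itgav*, which is 9.68% of the members against 11.6% of all genes. KO was higher within each of the 3 numbers in 0 members, against 10.9% of all genes. When the sum of squares of log2 CPM over the 6 libraries was divided, the part between the genotypes had a median of 12.8% over the members, against 11.8% over all genes. The part between the library numbers had a median of 54.8% over the members, against 44.9% over all genes. It reached 99.3% in *Itgb8*, 86.2% in *Itga6*, 75.1% in *Lama1*, 73.8% in *Lamb1* and 70.4% in *Itga7*, and it was 6.90% in the *Itga5* and *Cbx5* locus. Of the 5 degrees of freedom among 6 libraries, the numbers take 2 and the genotypes 1.

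**Figure D4:**
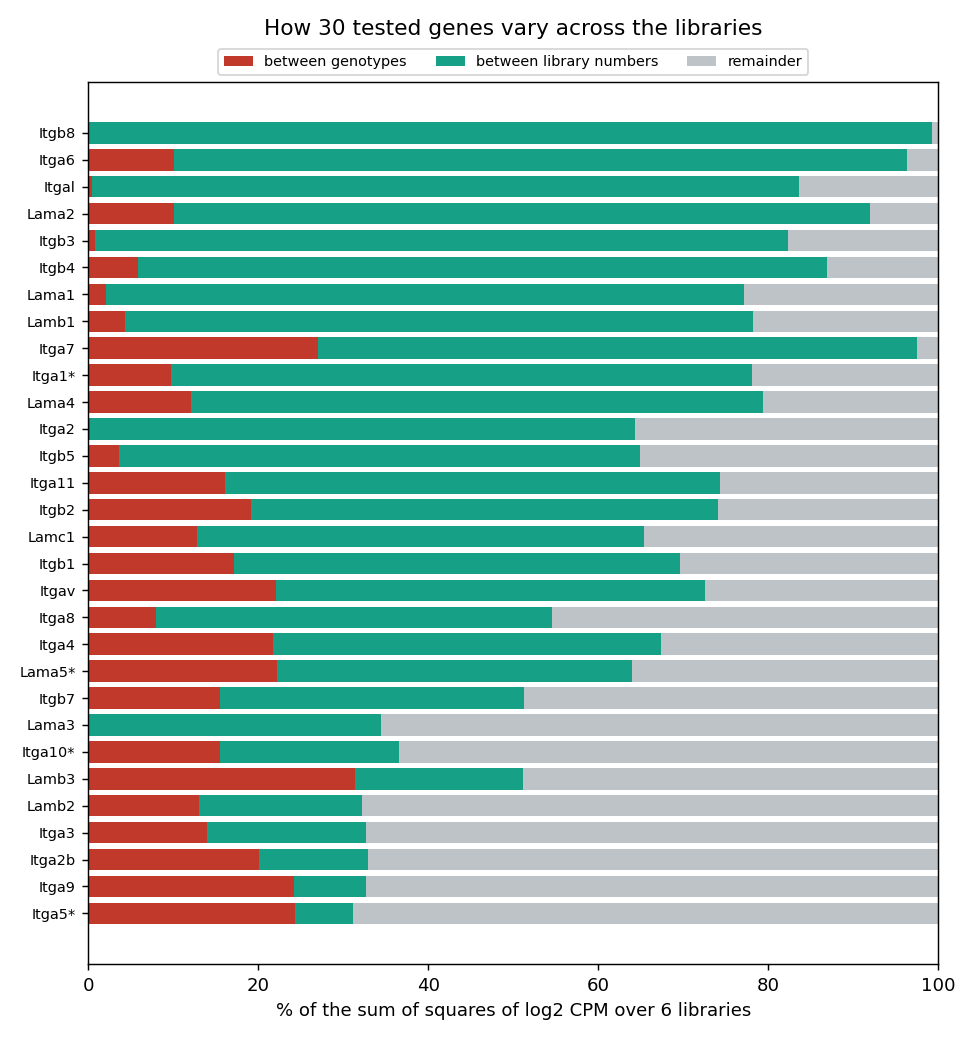
Share of the sum of squares of log2 CPM over the 6 libraries that lay between genotypes (red), between library numbers (green) and in the remainder (grey), for 30 of the 31 members tested; an asterisk marks a locus naming another gene. *Itgb8* had 99.3% of its sum of squares between the library numbers, and the largest share between the genotypes was 31.4%, in *Lamb3*.

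KO NPC 3 set the KO mean of many abundant members. Over the 31 members tested it was the highest library in 10, which is 32.3% of the members against 34.9% of all genes, and the lowest library in 12, which is 38.7% against 36.7% of all genes. Among all genes this place depended on the level. Among the 15 members with a mean of at least 10 CPM, KO NPC 3 was the lowest library in 11, or 73.3%, against 50.3% of all genes at that level. It was the highest library in 2, *Itgb8* and the *Itga5* and *Cbx5* locus, or 13.3%, against 25.9% of all genes at that level. Among the 16 tested members with a mean under 10 CPM it was the highest library in 8, or 50%, against 44.5% of all genes at that level, and the lowest in 1, or 6.25%, against 22.1%. Without KO NPC 3, the KO and WT libraries did not overlap in 5 of the 31 members, or 16.1%, against 17.3% of all genes.

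Genes that work with integrins and laminins were read from 3 lists. Of 18 tested integrin activators and adaptors, 9 had positive and 9 negative log2 fold changes (median 0.02), and 0 passed an adjusted p under 0.05 in edgeR's quasi-likelihood test. The most abundant were the *Parva* and *Tead1* locus, at 401 ± 187 CPM in KO NPCs and 523 ± 107 CPM in WT NPCs (SD, n = 3 each), and the PINCH adaptor gene *Lims1*, at 263 ± 123 CPM in KO NPCs and 299 ± 3.50 CPM in WT NPCs (SD, n = 3 each). *Apbb1ip*, which encodes the RAP1 effector RIAM, alone in this list was at an unadjusted p under 0.05, with 3, 3 and 4 counts in KO NPCs 1, 2 and 3, against 14, 14 and 12 counts in WT NPCs 1, 2 and 3. It passed the filter on low counts through the WT libraries, which selects for lower KO values, and nothing is read from its difference. Of 15 other laminin partners and basement membrane genes, the log2 fold change was positive in 5 and negative in 10 (median -0.13), and 0 passed, with 0 at an unadjusted p under 0.05. The most abundant were agrin, *Agrn*, at 620 ± 129 CPM in KO NPCs and 580 ± 181 CPM in WT NPCs, and the laminin receptor dystroglycan, *Dag1*, at 189 ± 25.3 CPM in KO NPCs and 195 ± 35.4 CPM in WT NPCs (SD, n = 3 each). Of 19 tested integrin ligands other than laminins, it was positive in 8 and negative in 11 (median -0.07), and 0 passed, with 0 at an unadjusted p under 0.05. Tenascin C, *Tnc*, was at 1110 ± 362 CPM in KO NPCs and 1232 ± 205 CPM in WT NPCs, and the *Mfge8* and *Hapln3* locus at 203 ± 38.3 CPM in KO NPCs and 208.5 ± 20.4 CPM in WT NPCs (SD, n = 3 each). The median log2 fold change over all genes was -0.01, and by the likelihood ratio test or DESeq2 0 genes of the 3 lists had an adjusted p under 0.05.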

How the data were processed

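The study sequenced RNA of 3 KO and 3 WT NPC cultures. Per the labels, the authors used Trimmomatic, STAR, Picard, StringTie and edgeR with GRCm38 (versions not stated), and deposited whole-number counts for each locus of an assembly merged with a reference annotation, neither scaled nor filtered, with locus lengths in bases. The sources used here do not say if the counting was stranded. The authors also deposited log2 CPM and log2 values relative to *Rn7sk*, with genotype means, which were not used.

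Counts were summed per reference gene over the 53103 loci that name a gene, giving 53060 genes, and 6596 loci that name none (1.31% to 4.89% of a library) were left out. The totals at named loci were 52995791 to 85170379. The filter (filterByExpr, minimum count 10, minimum total 15) left 19073 genes. edgeR 4.0.16 (R 4.3.3, limma 3.58.1) applied TMM scaling and compared KO with WT by the quasi-likelihood test, without a block, with Benjamini-Hochberg adjustment over all genes and a threshold of 0.05. CPM used TMM-scaled totals, and log2 CPM a prior count of 2. Intervals of log2 fold changes are at 95%. Per-kb levels used the authors' locus length, so a merged locus is divided by the length of all its genes. Counts are of reads without molecular identifiers. The scripts were tested on simulated counts.

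Log2 fold changes with errors were to be given for members with a mean of at least 10 CPM, an unadjusted p under 0.05 or libraries that do not overlap between the genotypes, and genes outside the members were to be named at an unadjusted p under 0.05 or as the 2 most abundant of their list. *Itgb7* and the scarce members given with single-library values fall outside this rule, as do the markers named singly other than *Kdr*, and were picked once their values had been seen. The members and lists were chosen with earlier results of these data known. The library numbers were taken to pair the samples, because the study describes 3 pairs of biological replicates. Its text does not say that the numbers mark these pairs. Deviations from genotype means correlated at 0.413, 0.169 and 0.195 within the numbers 1, 2 and 3, against at most 0.0579 between other libraries. The deviations sum to 0 within a genotype, so positive correlations within numbers lower the others, and the contrast is partly built in. The main test used no block and so ignored any pairing. Alternatives were scaling by *Rn7sk* or total counts, no filter, the likelihood ratio test, DESeq2 1.42.0, a replicate block in each edgeR test, and dropping each library in turn or both libraries numbered 3. The counts of members whose libraries do not overlap under other settings were added after the data were seen. Lists other than the members were activators and adaptors, laminin partners, other ligands, and 7 cell type marker lists. The values of 1 member are not reported here singly and are left out of the figures.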

Additional observations from a re-analysis of the deposited data

How the results depend on the processing

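The count of members at an adjusted p under 0.05 was 0 under every alternative run, including the replicate block, which also turned no direction among the 15 members given with a log2 fold change. The count at an unadjusted p under 0.05 was 0 in the report and 1 with the *Rn7sk* scale, no filter, the likelihood ratio test or DESeq2 (*Itgb7* each time), and 1 with the replicate block in either edgeR test (*Itga7*), settings that put between 1.88% and 3.13% of all genes at such a p. It was between 0 and 3 when each library was left out in turn, with 3 without KO NPC 3 (*Itga7*, *Itga9* and *Lama2*, against 2.77% of all genes) and 2 without KO NPC 1 (*Itgb2* and *Itgb7*, against 4.78%), and 4 without both libraries numbered 3 (*Itga2b*, *Itga9*, *Lama2* and *Lamb2*, against 2.80%). The count of members whose libraries do not overlap was 0 in the report, on total counts and on the *Rn7sk* scale, 5 without KO NPC 3 and 6 without both libraries numbered 3, or 19.4% against 29.9% of all genes. The fewer libraries make such gaps easier in any gene. The median log2 fold change of the members was -0.39 on the *Rn7sk* scale, where that of all genes was -0.26, and otherwise lay between -0.26 and -0.07.

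Single directions turned as follows, and the cause was not tested. In this paragraph *Itga5* and *Itga1* stand for the loci shared with *Cbx5* and *Pelo*. On the *Rn7sk* scale *Itgb8* was at -0.25, and without a filter at -0.00505. Without both libraries numbered 3, *Itga5* was at -0.044, *Itgb5* at 0.22, *Itgb8* at -0.015, *Lama1* at 0.21, *Lamb1* at 0.22 and *Lamc1* at 0.017. With each library left out in turn, the log2 fold change ran between -0.36 and 0.10 for *Itga1*, -0.77 and 0.11 for *Itga6*, -0.51 and 0.22 for *Itgb5*, -0.18 and 0.35 for *Itgb8*, -0.41 and 0.47 for *Lama1*, -1.28 and 0.32 for *Lama4*, -0.99 and 0.54 for *Lamb1*, and -0.26 and 0.049 for *Lamc1*. It kept its sign between -1.23 and -0.15 for *Itga4*, 0.10 and 0.48 for *Itga5*, -1.37 and -0.29 for *Itga7*, -0.29 and -0.019 for *Itgav*, -0.63 and -0.069 for *Itgb1*, -1.01 and -0.056 for *Lama5*, and -0.34 and -0.010 for *Lamb2*, which was at -0.45 without both libraries numbered 3. On total counts, with the likelihood ratio test, DESeq2 and the block, 15 of 15 kept their direction. The first 10 members by WT level were the same 10 on each length scale, with coding length taken from GENCODE. With 3 libraries a group and a median SE of 0.61, small changes could not be detected. Large ones could be missed too, since *Armc5* itself, at a log2 fold change of -4.68, had an adjusted p of 0.0864 in edgeR's quasi-likelihood test. The absence of called members therefore sets no narrow limit on their changes.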
